A study of Homo sapiens with 16 samples.

Results

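G-quadruplex (G4) peaks found after knockdown of BAZ2A were compared directly with those found after knockdown of BAZ2B. Guanine-rich DNA can fold into G4s, which in human cells are found mostly at nucleosome-poor, active promoters. BAZ2A, also called TIP5, pairs with an ISWI-type ATPase to form the nucleolar remodelling complex, which is best known for silencing ribosomal RNA genes and for its part in heterochromatin. BAZ2B is its closest relative, with the same kind of bromodomain and PHD finger, and its targets are less well described.

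The cells were A549, an established human lung carcinoma line of epithelial origin, transfected with 71 nM siRNA for 48 hours. The compared groups are siBAZ2A and siBAZ2B, with 4 replicates each of BG4 CUT&Tag, in which an antibody fragment against folded G4 DNA directs a transposase to cut and tag the DNA around it. A further 4 siControl replicates of BG4 and 4 of H3K4me3, the histone mark of active promoters, complete the 16 samples. All groups are transient transfections of 1 cell line, and how far each protein was depleted was not analysed here. The labels do not say whether replicates are separate cultures. Per the labels' protocols, Drosophila chromatin was added as a spike-in. Nothing used here says if values were scaled to it. The lists hold no expression values, so the cell line could not be checked against marker genes.

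Each group is represented by 1 merged peak list. The siBAZ2A list held 4257 peaks and the siBAZ2B list 4865, together 9122 of the 31050 peaks of the series. Without values per replicate, no spread between cultures can be given, and none of the differences below was tested between the conditions. The 95% intervals in brackets are Wilson intervals over peaks and cover counting error only. Read depth was not analysed here. A minimum of 1 common base made a pair of peaks shared, and all coordinates are hg19.

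Most G4 peaks were found after both knockdowns. A partner in siBAZ2B was found for 3267 siBAZ2A peaks (76.7%, 75.5 to 78.0). A partner in siBAZ2A was found for 3278 siBAZ2B peaks (67.4%, 66.0 to 68.7). The siBAZ2A-only peaks numbered 990, which is 23.3% of that list, and the siBAZ2B-only peaks 1587, which is 32.6% of the longer list. Merged, both lists form 5834 loci, of which 3257 are shared, and only 30 of the shared loci hold more than 1 peak of a list. The remaining 3227 are one-to-one pairs. By length, siBAZ2A peaks had 69.6% of their bases in both lists and siBAZ2B peaks 59.1%, which is 47.0% of the 3.64 Mb covered by either.

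Sharing was close to all or nothing. The median overlap of a one-to-one pair was 489 bp, and 89.0% of overlapping pairs (87.9 to 90.02) covered at least 50% of each other. Only 6 pairs overlapped by less than 50 bp, the smallest by 9 bp and the next by 16 bp. On the other side of the threshold, 26 siBAZ2A-only peaks lay within 1000 bp of a siBAZ2B peak, the nearest directly abutting it at 0 bp. In siBAZ2B, 37 such peaks lay within 1000 bp, the nearest at 15 bp. The typical single-list peak was far from any peak of the other knockdown. Median gaps were 84843.5 bp (quartiles 28128 and 286825) for siBAZ2A and 89235.5 bp (27653 and 276010) for siBAZ2B. Such gaps also depend on how sparse the lists are, and they were not compared with the spacing of peaks within a list.

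The very strongest loci held nearly the same ranks after both knockdowns. Strength here means fold enrichment over background, a value of the authors' own peak calling, and it served only to rank peaks within a list. The peak at chr14:106641457-106641922 was rank 1 in siBAZ2A (fold 23.3) and rank 1 in siBAZ2B (fold 23.1), with summits 4 bp apart. The peak at chr12:133841418-133842026 was rank 2 in both (folds 23.03 and 22.9). At chr13:110076330-110076814 the ranks were 5 and 3, at chr17:22020533-22020988 they were 3 and 6, and at chrY:59362907-59363509 they were 4 and 5. Next came chr22:23161884-23162379, with ranks 7 and 4, and chrX:155259901-155260498, with ranks 6 and 7. Of the 10 pairs with the highest mean rank, all were also in siControl and 5 lay outside H3K4me3, against 177 of the 3227 pairs in all. The chrX and chrY sites lie in end regions that both chromosomes share, so they may be 1 sequence placed on 2 chromosomes. The chrY site is among the 5, while the chrX site lay on H3K4me3, so these counts are not all of independent loci. Whether reads at the other leading sites map to a single place was not analysed here.

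Below these leading peaks the order was shared only in part. Of the 100 strongest siBAZ2A peaks, all 100 had a siBAZ2B peak somewhere in the list, but 41 (41.0%, 31.9 to 50.8) had one among the 100 strongest of siBAZ2B. Among the top 1000 of each list, 50.1% (47.0 to 53.2) were in both tops. Over all 3227 pairs, Spearman's rho of the fold ranks was 0.52. This is a description over peaks that share their libraries, not a test. The median difference between a pair's percentiles was 17.6 points, 32.6% of pairs (31.0 to 34.3) lay within 10 points, and 8.12% (7.23 to 9.11) lay over 50 points apart.

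**Figure D1:**
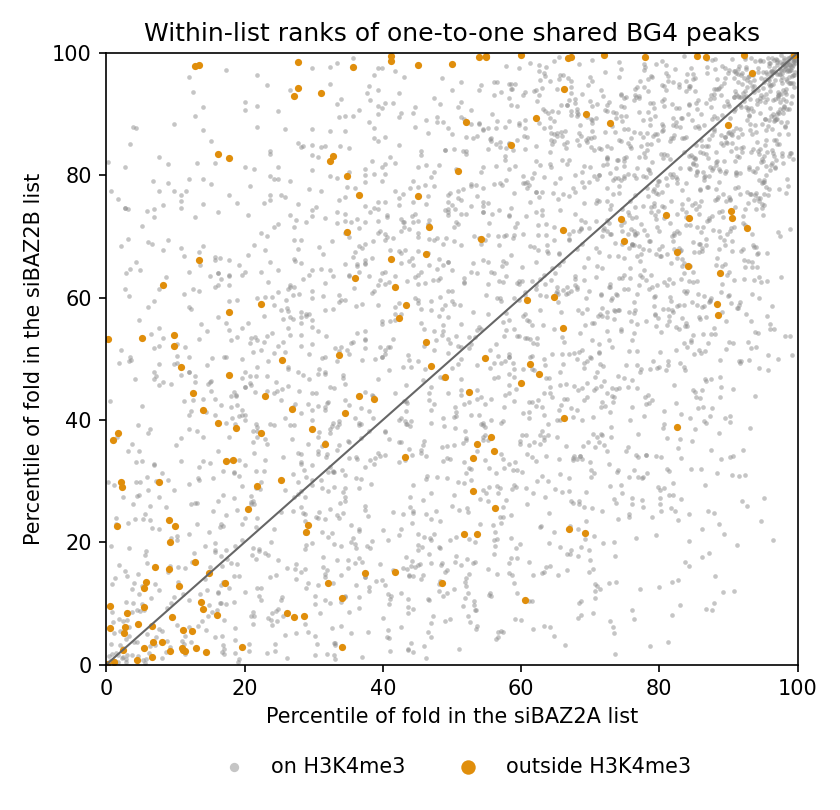
Percentile of fold within the siBAZ2A list (horizontal) and within the siBAZ2B list (vertical) for the 3227 one-to-one shared peaks, with the line of equal percentiles. The cloud is dense only at the upper right corner, and the 177 pairs outside H3K4me3 (orange) include a row near the top edge that spreads across much of the siBAZ2A scale.

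Within quintiles of siBAZ2A fold, rho was highest among the strongest peaks. Within the strongest quintile of siBAZ2A peaks, rho was 0.48 over 822 pairs, and within the other 4 quintiles it lay between 0.08 and 0.20. A quintile holds a narrow range of fold, which by itself lowers a correlation. The ranges were unequal, with folds from 8.85 to 23.3 in the strongest quintile and from 7.53 to 8.85 in the fourth. How much of the contrast in rho comes from these ranges was not tested. Pairs that siControl also held had a rho of 0.55 (2301 pairs), and pairs that it lacked had 0.31 (926 pairs). The 926 pairs without a siControl peak were narrower, at a median of 497 bp in siBAZ2A and 541 bp in siBAZ2B against 628 bp and 671 bp.

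Rank agreement between the knockdowns was no higher than that of each with siControl. At the 2278 loci where all 3 BG4 lists pair one to one, rho of fold was 0.55 between siBAZ2A and siBAZ2B, 0.65 between siBAZ2A and siControl, and 0.58 between siBAZ2B and siControl. For widths the values were 0.55, 0.60 and 0.55 in the same order. The median summit distances were 63 bp, 61 bp and 65 bp. These loci are by definition in siControl, so they leave out the sites that only the knockdowns hold.

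Some shared sites held very different ranks. At chr5:137667348-137667837 the siBAZ2A peak was rank 393 (percentile 90.7) and its siBAZ2B partner rank 4276 (percentile 12.1). The site at chr3:52444265-52444776 stood at percentile 87.6 in siBAZ2A and 8.98 in siBAZ2B, where the peak was much wider, at 1062 bp against 512 bp. At chr17:29876699-29877256, chr11:67250287-67250816 and chr20:34673439-34673843 the siBAZ2A percentiles were 87.9, 86.7 and 81.2 and those of siBAZ2B 10.1, 9.13 and 3.77. All 5 of these sites lay on H3K4me3, and 4 of the 5 were not in siControl.

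Of the 5 sites that leaned furthest the other way, the first 2 lay outside H3K4me3. By its siBAZ2B coordinates, as for the next 3, the peak at chrY:13842503-13842926 was rank 106 in siBAZ2B (percentile 97.8) and rank 3710 in siBAZ2A (12.8). The peak at chr2:109815718-109816282 was rank 94 in siBAZ2B (98.1) and rank 3681 in siBAZ2A (13.4). On H3K4me3 regions, chr15:82824692-82825246 stood at percentile 87.9 against 3.83, and chr3:25824571-25825303 at 87.7 against 4.24. Over all pairs, 110 ranked more than 50 points higher in siBAZ2A and 152 more than 50 points higher in siBAZ2B. Of the first set 109 of 110 lay on H3K4me3 (99.1%, 95.03 to 99.8), and of the second 135 of 152 (88.8%, 82.8 to 92.9). A siControl peak was present at 77 of the 110 (60.9 to 77.8%) and at 82 of the 152 (53.9%, 46.0 to 61.7), so the 5 sites named for siBAZ2A, mostly absent from siControl, are not typical of their set.

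Shared sites outside H3K4me3 as a group stood higher within the siBAZ2B list. The 177 such pairs had a median percentile of 34.05 in siBAZ2A and 44.5 in siBAZ2B, and 106 of them (59.9%, 52.5 to 66.8) ranked higher in siBAZ2B. The 3050 pairs on H3K4me3 had medians of 60.3 and 60.4, and 48.0% (46.3 to 49.8) ranked higher in siBAZ2B. At or above the 90th percentile stood 30 of the 177 in siBAZ2B, where the same 30 had a median siBAZ2A percentile of 63.2, and 11 of the 177 in siBAZ2A, whose median siBAZ2B percentile was 99.6. On chromosomes 1 to 22 and X alone these counts were 25 and 10 of 163. At the 113 loci outside H3K4me3 that pair in all 3 lists, 11 were at or above the 90th percentile in siBAZ2A, 29 in siBAZ2B and 23 in siControl. The median percentiles of these loci were 41.8, 50.6 and 39.1, so siControl stood nearer to siBAZ2B in the count of strong sites and nearer to siBAZ2A in the median.

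Shared peaks were slightly wider in the siBAZ2B list. Per the labels, the borders of a list come from whichever replicate had most peaks. Widths thus compare a single replicate per group, and the difference was not tested against the spread of replicates. The median width was 589 bp in siBAZ2A and 630 bp in siBAZ2B, and the median difference within pairs, siBAZ2A minus siBAZ2B, was -35 bp (quartiles -159 and 72). The siBAZ2B peak was the wider one in 58.5% of pairs (56.8 to 60.2) and the siBAZ2A peak in 41.1% (39.4 to 42.8). The siBAZ2A peak lay wholly inside its partner in 30.0% of pairs (28.4 to 31.6), and the reverse held in 18.0% (16.7 to 19.4). Widths agreed to about the degree that ranks did, with a rho of 0.52, and 79.2% of pairs (77.8 to 80.6) were within 1.5 times of each other.

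The summits of shared peaks, the points of highest signal, fell close together. The median distance was 69 bp (quartiles 28 and 138), 40.0% (38.4 to 41.7) were within 50 bp, 63.7% (62.0 to 65.3) within 100 bp and 84.8% (83.5 to 86.0) within 200 bp. The offset had no direction, with a median signed distance of 0 bp. Distance fell with strength, from a median of 109 bp in the weakest quintile of siBAZ2A peaks to 45 bp in the strongest. The pairs with the widest separation were broad peaks with nearly equal borders. At chr19:47776574-47777831 the summits were 919 bp apart in peaks of 1258 bp and 1261 bp, and at chr12:49350435-49351600 they were 775 bp apart in peaks of 1166 bp and 1140 bp. An exception was chr9:140739604-140740199, where peaks of 596 bp and 604 bp overlapped only at their edges and the summits lay 765 bp apart.

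**Figure D2:**
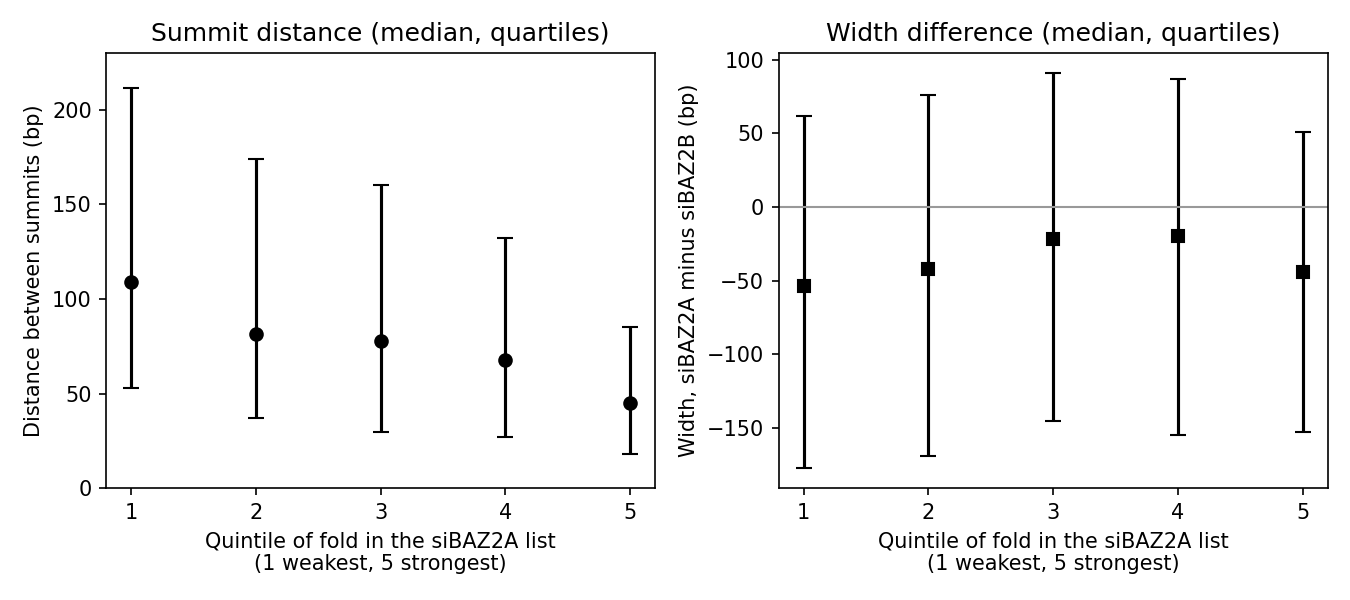
Distance between the summits of one-to-one shared peaks (left, bp) and width in siBAZ2A minus width in siBAZ2B (right, bp) by quintile of fold in the siBAZ2A list; points are medians and bars run from the first to the third quartile. The summit distance falls from 109 bp to 45 bp, while the median width difference is below 0 in all 5 quintiles.

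Peaks of 1 knockdown only were weak and narrow. In siBAZ2A, median widths were 424 bp for single-list and 589 bp for shared peaks, at median percentiles of 26.1 and 58.6. In siBAZ2B they were 436 bp and 628.5 bp, at percentiles of 33.1 and 59.2. From the weakest to the strongest quintile, the single-list share fell from 45.5% (42.2 to 48.9) to 3.17% (2.19 to 4.58) in siBAZ2A. In siBAZ2B it fell from 50.2% (47.0 to 53.3) to 11.7% (9.84 to 13.9). By width the same shares fell from 44.8% to 6.23% in siBAZ2A and from 61.6% to 6.99% in siBAZ2B.

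**Figure D3:**
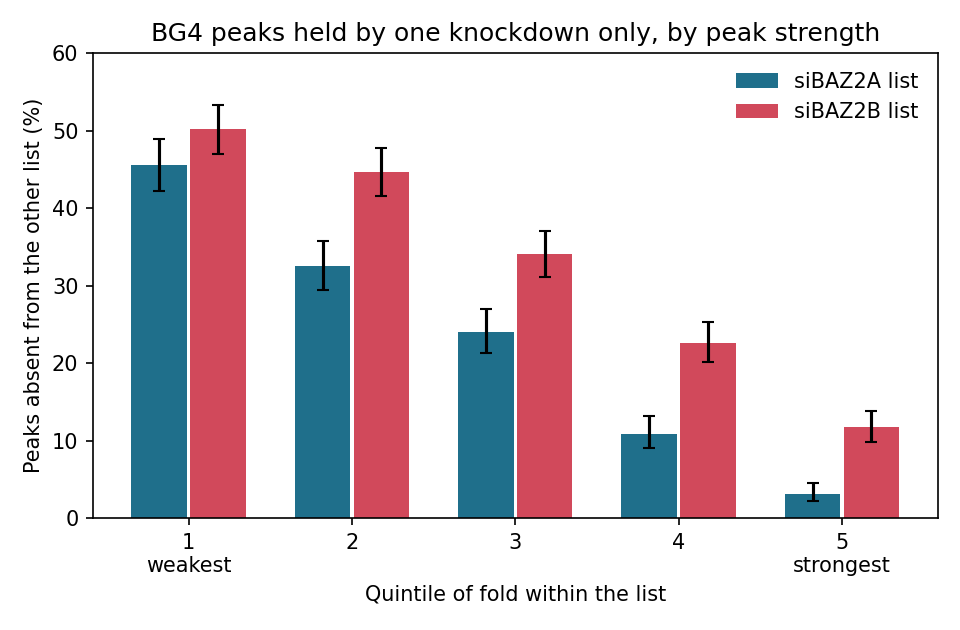
Share of each list's peaks that have no peak in the other knockdown (vertical, %), by quintile of fold within the list (horizontal); bars are shares and error bars 95% Wilson intervals over peaks. The share falls in both lists, to 3.17% of the strongest siBAZ2A peaks and 11.7% of the strongest siBAZ2B peaks.

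Strong peaks were matched unequally. Of the 500 strongest siBAZ2A peaks, 491 (98.2%, 96.6 to 99.1) had a siBAZ2B peak, whereas of the 500 strongest siBAZ2B peaks, 455 (91.0%, 88.2 to 93.2) had a siBAZ2A peak. The siBAZ2A list is shorter, and the part of list length in this was not tested. With siBAZ2B limited to as many peaks as siBAZ2A, 489 of the 500 strongest siBAZ2A peaks (97.8%, 96.1 to 98.8) had a match. The strongest quintile held 27 siBAZ2A-only and 114 siBAZ2B-only peaks.

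The strongest siBAZ2A-only peaks all lay on H3K4me3, and several came from chromosome 6. First was chr1:161581972-161582519 (fold 10.4, rank 317), which siControl also held at percentile 28.4. Among the rest were chr6_mcf_hap5:1416506-1417017 (fold 10.3), on an alternative haplotype of chromosome 6, chr6:30034630-30035127 (10.2), chrX:153059528-153059936 (9.97) and chr6:43027096-43027644 (9.96). A peak at chr6:33377926-33378734 (fold 9.85) had its nearest siBAZ2B peak 7068 bp away. Of the 10 strongest, 3 lay on alternative haplotypes of chromosome 6, and 5 of the 10 had a siControl peak. Reads from alternative haplotypes can be placed on more than 1 copy, so such peaks are not independent of those on chromosome 6. Outside H3K4me3 the strongest were chr7:151384808-151385177 (fold 9.10, rank 735) and chr22:18841663-18842179 (8.67, rank 927), and none of the first 5 had a siControl peak.

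The 10 strongest siBAZ2B-only peaks lay mostly outside H3K4me3 and were mostly present in siControl. The peak at chr21:10819405-10819868 was rank 22 of the list (fold 13.9) and stood at percentile 98.5 in siControl. On the unplaced contig Un_gl000222, the peak from 84090 to 84611 was rank 52 (fold 11.3). Others outside H3K4me3 were chr21:11186467-11186855 (fold 10.9, rank 78), chr22:18688098-18688568 (9.90, rank 157), chr3:101158442-101158866 (9.65, rank 195) and chr2:10727-11141 (9.64, rank 197). On H3K4me3 regions stood chr3:99979631-99980083 (fold 11.1, rank 64), chr11:43702001-43702596 (10.9, rank 72), chr10:135524124-135524890 (10.4, rank 116) and chr17:58469254-58469941 (9.72, rank 182). Of these 10, 4 overlapped H3K4me3 and 8 had a siControl peak. The siControl percentiles of these 8 ran from 24.9 to 98.5. Among all 114 siBAZ2B-only peaks of the strongest quintile, 86 (75.4%) lay on H3K4me3 and 49 (43.0%) had a siControl peak. The 10 named peaks are therefore not typical of that set. Whether these sites lie in repeats, or their reads map to a single place, was not analysed here.

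H3K4me3 overlap was high in every set. The H3K4me3 peaks come from siControl cells only, and the mark was not measured after either knockdown. Overlap was 94.4% in shared peaks of either list, 87.8% in siBAZ2A-only peaks (85.6 to 89.7) and 82.0% in siBAZ2B-only peaks (80.1 to 83.9). The single-list sets differed by 5.74 percentage points, siBAZ2A minus siBAZ2B (Newcombe 95% interval 2.90 to 8.47). Shared minus single-list was 6.65 points in siBAZ2A (4.58 to 8.96) and 12.4 points in siBAZ2B (10.4 to 14.5). These intervals cover counting error over peaks, and no replicate error is known. The order of the single-list sets turned when only the stronger 50% of H3K4me3 peaks, ranked by fold, counted. It was then 45.4% (42.3 to 48.5) in siBAZ2A-only and 47.8% (45.3 to 50.2) in siBAZ2B-only peaks, with overlapping intervals.

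In siBAZ2B the contrast was present at every strength. In each quintile of fold the siBAZ2B-only peaks were on H3K4me3 less often than the shared ones, with 77.3% against 89.3% in the weakest and 75.4% (66.8 to 82.4) against 95.2% (93.6 to 96.5) in the strongest. In siBAZ2A single-list peaks were also below shared ones in the middle quintiles, with 87.0% (82.5 to 90.5) against 93.9% (91.6 to 95.6) in the second, 87.3% (82.1 to 91.2) against 94.7% (92.7 to 96.2) in the third and 92.5% (85.3 to 96.3) against 97.1% (95.6 to 98.1) in the fourth. The intervals were apart in the second and in the third quintile. The weakest siBAZ2A quintile had 86.9% in single-list and 85.1% in shared peaks, and the strongest had 96.3% (81.7 to 99.3), 26 of 27, against 97.3% (96.0 to 98.2). The strongest single-list peaks outside H3K4me3 were therefore 1 in siBAZ2A and 28 in siBAZ2B. Of those 28, 18 had a siControl peak, 6 lay within 1 Mb of a chromosome end and 2 lay off chromosomes 1 to 22 and X. Of all 285 siBAZ2B-only peaks outside H3K4me3, 30.9%, 10.2% and 9.12% had these properties. Of the 183 shared siBAZ2B peaks outside H3K4me3 it was 65.0%, 15.3% and 9.29%.

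**Figure D4:**
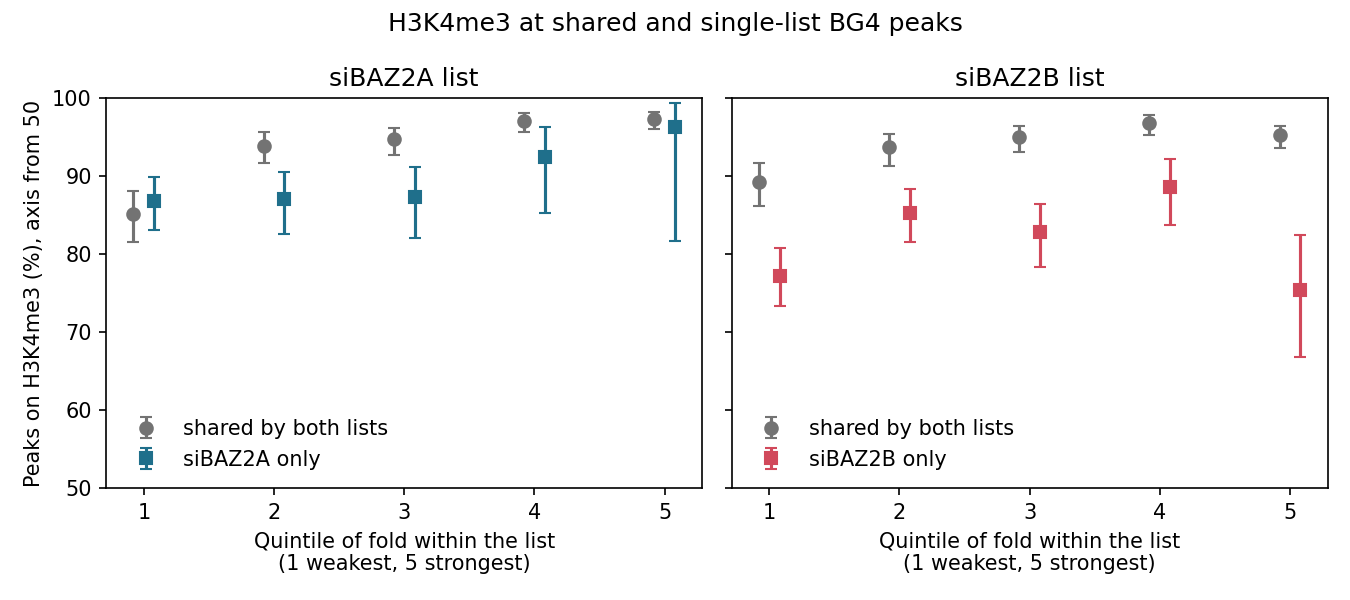
Share of peaks that overlap an H3K4me3 peak (vertical, %, axis from 50) by quintile of fold (horizontal), for shared peaks (grey circles) and single-list peaks (coloured squares) of siBAZ2A (left) and siBAZ2B (right), with 95% Wilson intervals over peaks. In siBAZ2B the single-list peaks lie below the shared ones in all 5 quintiles, and in the strongest they stand at 75.4% against 95.2%.

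Where they lay on H3K4me3, the sets were alike in position. Summits of G4 and H3K4me3 peaks lay a median of 125 bp apart in siBAZ2A-only and 124 bp in shared siBAZ2A peaks, and 124 bp and 129 bp in the same sets of siBAZ2B. The regions under shared peaks were wider, at a median of 1461 bp and 1459 bp, than those under siBAZ2A-only (1373 bp) and siBAZ2B-only peaks (1317.5 bp). By H3K4me3 fold, regions under siBAZ2B-only peaks ranked somewhat higher, at a median percentile of 57.5. Those under siBAZ2A-only peaks stood at 51.3 and those under shared siBAZ2B peaks at 51.5. By −log10 q of H3K4me3, counted by region, the order differed. The median was 47.3 for regions with peaks of both lists, 43.4 with siBAZ2B only and 40.8 with siBAZ2A only.

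Counted by region, 3080 of the 18596 H3K4me3 peaks carried G4 peaks after both knockdowns, 844 after siBAZ2A only and 1270 after siBAZ2B only. The 3080 were 78.5% (77.2 to 79.7) of the regions with a siBAZ2A peak and 70.8% (69.4 to 72.1) of those with a siBAZ2B peak. A region seldom held 2 separate sites. Only 24 of 869 siBAZ2A-only peaks on H3K4me3 (2.76%) and 27 of 1302 siBAZ2B-only peaks (2.07%) had a different peak of the other knockdown in their region. Of the regions with both, 9 held no overlapping pair. Most single-list peaks on H3K4me3 thus lay in regions with no peak of the other list.

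Wide regions were the ones most often common to both. Among regions with a peak of either list, the share with both rose from 44.4% (39.5 to 49.4) in the narrowest quintile of H3K4me3 peaks to 66.5% (64.2 to 68.7) in the widest. A wide region offers more bases for an overlap. The siBAZ2B-only share fell from 31.6% (27.1 to 36.4) to 18.3% (16.6 to 20.2), and the siBAZ2A-only share from 24.0% (20.0 to 28.5) to 15.2% (13.6 to 17.0). The strongest H3K4me3 region with a siBAZ2A peak only was chr12:51818503-51819233 (H3K4me3 rank 18), whose G4 peak stood at percentile 79.1. The strongest with a siBAZ2B peak only was chr2:232276688-232277288 (H3K4me3 rank 8), with its G4 peak at percentile 34.6.

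The siControl list held similar parts of both single-list sets. A siControl peak overlapped 235 of the siBAZ2A-only peaks (23.7%, 21.2 to 26.5) and 395 of the siBAZ2B-only peaks (24.9%, 22.8 to 27.1), against 71.1% of the shared peaks of either list. Outside H3K4me3 the shares stood further apart, with 21 of 121 siBAZ2A-only peaks (17.4%, 11.6 to 25.1) and 88 of 285 siBAZ2B-only peaks (30.9%, 25.8 to 36.5). On H3K4me3 they were 24.6% and 23.6%.

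The longer siBAZ2B list was not the work of a few chromosomes. On each of the 20 chromosomes with 50 or more peaks in both lists, siBAZ2B had more peaks than siBAZ2A, by 1.05 to 1.28 times. Its single-list share was also larger on each. With nearly all shared peaks in one-to-one pairs, the list with more peaks on a chromosome almost necessarily has the larger share. That share is therefore not a separate result. The lowest single-list shares were on chromosome 19, with 17.0% in siBAZ2A (13.5 to 21.1) and 24.3% in siBAZ2B (20.4 to 28.6). The highest was on chromosome 6 in siBAZ2A (32.0%, 23.7 to 41.7) and on chromosome 4 in siBAZ2B (40.9%, 32.2 to 50.3). Neighbours in this order had overlapping intervals.

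**Figure D5:**
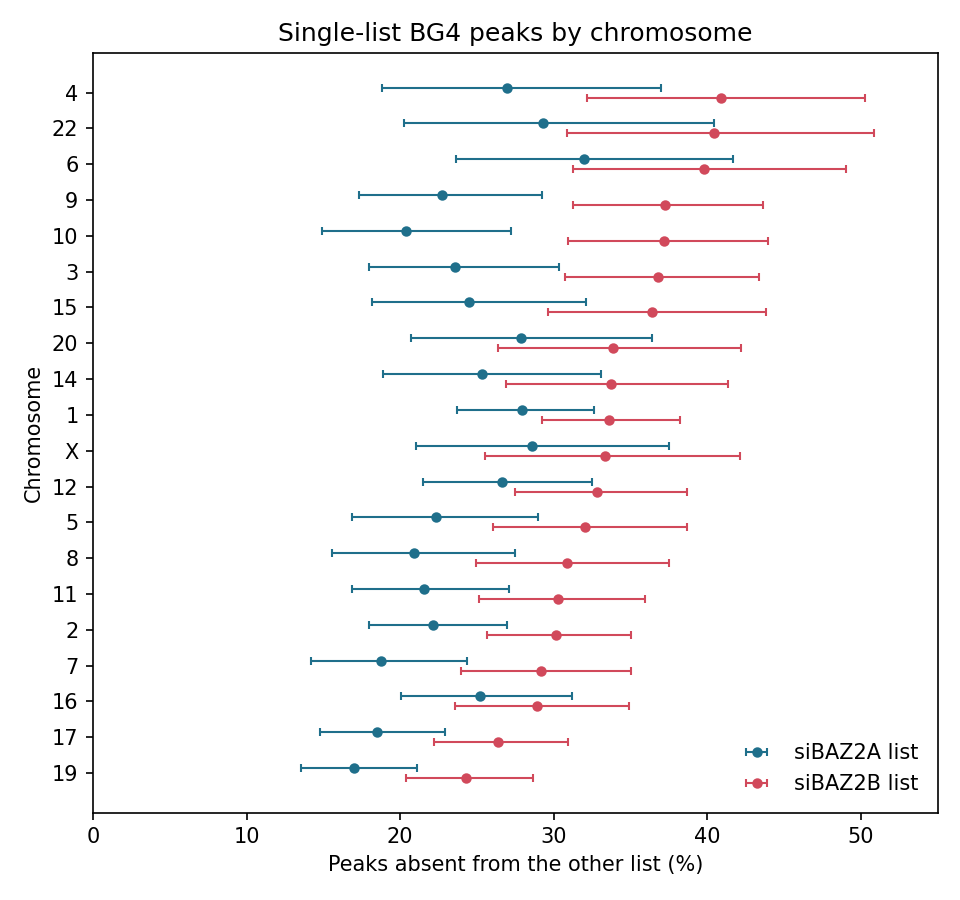
Share of peaks absent from the other list (horizontal, %) on the 20 chromosomes (vertical) with 50 or more peaks in both lists, for siBAZ2A (blue) and siBAZ2B (red), with 95% Wilson intervals over peaks. The siBAZ2B point lies to the right of the siBAZ2A point on all 20, and chromosome 19 is lowest in both. The side follows almost entirely from the larger siBAZ2B peak counts.

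Sequences outside the main chromosomes also held more single-list peaks in siBAZ2B, as did the whole lists (32.6% against 23.3% in siBAZ2A). The siBAZ2B list also had more peaks there, which by itself leads to a larger single-list share. On unplaced or unlocalised contigs, 18 of 44 siBAZ2B peaks (40.9%, 27.7 to 55.6) and 3 of 26 siBAZ2A peaks (11.5%, 4.00 to 29.0) had no partner, and 12 of the 18 were in siControl. On the alternative haplotypes of chromosome 6 it was 31 of 70 siBAZ2B peaks (44.3%, 33.2 to 55.9) and 11 of 50 siBAZ2A peaks (12.8 to 35.2). Both whole-list shares lie inside the contig intervals. For the haplotypes the siBAZ2A share lies inside its interval, and the siBAZ2B share just below its own. These contigs and haplotypes hold copies of similar sequence, so their peaks are not independent of each other. Within 1 Mb of a chromosome end, single-list peaks were 43 of 213 (20.2%, 15.3 to 26.1) in siBAZ2A and 75 of 243 (30.9%, 25.4 to 36.9) in siBAZ2B. The shares of the whole lists lie inside these intervals. Chromosome lengths were not used, and each chromosome was taken to end where its final listed peak ends.

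Single-list peaks rarely formed long runs. Along the chromosomes, 667 siBAZ2A-only and 827 siBAZ2B-only peaks stood alone between loci of other classes. The longest run of siBAZ2A-only peaks held 4 peaks, and there were 4 such runs. Of siBAZ2B-only peaks, 2 runs held 7. The shorter lay at chr2:92296639-92324651, where 7 peaks within 28.0 kb had no siBAZ2A peak, none overlapped H3K4me3 and 3 were in siControl. These 7 peaks were weak, with a median percentile of 0.606. Whether reads there map to a single place was not analysed here. The other spread over 4786 kb at chr6:10404404-15190105, with 6 of its 7 peaks on H3K4me3.

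A peak missing from a list may still have been called before the replicates were merged. The peak names carry numbers of a peak-calling run, and a number missing between neighbouring peaks was taken as a peak called there but not kept. The run labels in these names do not all match the labelled replicates, so which replicate a run stands for is not known here. Between the peaks that flank a siBAZ2A-only peak in the siBAZ2B list, no number was missing in 126 of 978 cases (12.9%, 10.9 to 15.1). The converse held for 198 of 1542 siBAZ2B-only peaks (12.8%, 11.3 to 14.6). Over all spaces between neighbouring peaks no number was missing in 57.3% (2758 of 4813) of the siBAZ2B list and 54.1% (2278 of 4209) of the siBAZ2A list, with spaces not matched for length. At these sites the run behind the other list had no call at all, if numbers follow position, as they do within every chromosome of the lists. For the remaining single-list peaks, a call in that run that was not kept cannot be told apart from no call.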

How the data were processed

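BG4 CUT&Tag was made in 4 replicates each of siBAZ2A, siBAZ2B and siControl, and H3K4me3 CUT&Tag in 4 siControl replicates. The submitters' processing notes name MACS2 2.1.4, Bowtie2 2.4.5, SAMtools 1.15.1, Picard, bedtools and the builds dm6 and hg19. A peak entered a group's list, per the labels, when 2 or more replicates had it, and its borders come from whichever replicate had most peaks, so a list can grow with the depth of its replicates and holds no depth per sample. The deposited column 7 holds a ratio, the fold over background, column 9 of the deposited lists is −log10 q, column 5 of the deposited lists is a display score (not used), and column 10 gives the summit.

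Overlaps, percentiles of fold (rank within a list), Spearman's rho, widths and summit distances were computed with SciPy 1.17.1, networkx 3.6.1, NumPy 2.4.6, pandas 2.3.3 and matplotlib 3.10.9 under Python 3.11.15, and the overlap counting was tested on simulated data. No significance test was made. Correlations and medians were taken over one-to-one pairs. Named loci are those of highest fold among single-list peaks (10 per list, and 5 outside H3K4me3), the 10 pairs of highest mean percentile, the 5 most unequal pairs each way, the 5 widest summit distances, the 5 strongest H3K4me3 regions with a peak of 1 list, the longest runs, and the chromosomes of lowest and highest single-list share. Not every locus so chosen is printed. The comparison, sets and lists were chosen with earlier results of these data known. An hg19 genome and annotation were not used here, so the planned gene lists and gene names were not analysed here, and the GRCh38 tables at hand were not joined to hg19 positions.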

Additional observations from a re-analysis of the deposited data

How the results depend on the processing

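Of 74 recomputed values, 48 stayed within the 95% interval of the reported value (or within 1.5 times of a count), and 26 moved. No single value changed sign, but 1 order between sets turned, with overlapping intervals, as given for the stronger H3K4me3 peaks. None of the 13 values without chromosome M, chromosome Y and contigs moved, nor the 8 with peaks up to 1 kb apart counted as shared, the 4 with the BG4 summit required inside the H3K4me3 peak, or rho over every overlapping pair. With 50% reciprocal overlap, 68.7% of siBAZ2A and 60.1% of siBAZ2B peaks were shared, rho of widths was 0.65, 66.1% of summits lay within 100 bp, and 84.0% of siBAZ2B-only peaks lay on H3K4me3. Keeping peaks with a −log10 q of 5 or more, the shared percentages were 74.7 and 69.3, rho of widths was 0.56, the median summit distance was 62 bp with 67.7% within 100 bp, and H3K4me3 overlap was 90.2% in siBAZ2A-only, 95.4% in shared siBAZ2A and 95.3% in shared siBAZ2B peaks. With lists of equal length, 70.2% of siBAZ2A and 70.1% of siBAZ2B peaks were shared, 1269 and 1271 were not, rho of fold ranks was 0.47, and 95.2% of shared siBAZ2B peaks lay on H3K4me3. Equal lengths force nearly equal single-list counts, in place of 990 and 1587. With summits within 100 bp required, 48.6% and 42.5% were shared and 2189 and 2797 were not. Against the stronger 50% of H3K4me3 peaks, overlap was 45.4% and 47.8% in single-list and 48.8% and 48.7% in shared peaks of siBAZ2A and siBAZ2B. The order of the single-list sets thus reversed from 87.8% and 82.0%, but their intervals overlapped (42.3 to 48.5 and 45.3 to 50.2). Ranks of −log10 q gave a rho of 0.58. No paired analysis was possible because the 4 replicates of a group come as 1 merged list, which also leaves no way to omit a replicate. Depth per replicate was not analysed here, so its part in the length of a list was not tested.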
